A study of Mus musculus with 38 samples.

Results

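Intestinal epithelial cells of wild-type (WT) mice were compared between day 7 of dextran sodium sulfate (DSS) colitis and no treatment, with 11 of the series' 38 RNA-seq libraries: 7 from day 7 and 4 from day 0. The libraries were taken by their titles, which give the day, the genotype and an animal number, and no measured value entered the choice. WT denotes C57BL/6 littermates with floxed Hk2 alleles (Hk2 flox/flox), so that day 0 and day 7 mice shared the floxed allele and lacked the deletion studied elsewhere in the series. In that other genotype, called KO here, Cre recombinase under the Villin promoter deletes Hk2 in the intestinal epithelium. Colitis was induced with 1.5% (w/v) DSS in the drinking water of males aged 10 to 12 weeks, with both genotypes housed together. The labels give ages of 9 to 11 and of 86 to 92 weeks for untreated phenotyping and do not tie either, or a sex, to the day 0 libraries. The sample labels name isolated epithelial cells, whereas the design text of the series names colon tissue.

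DSS is a sulfated polysaccharide that damages the colon lining when drunk, so that gut bacteria reach the tissue and an acute colitis follows. The injured epithelium is known to release antimicrobial proteins and chemokines, neutrophils and monocytes enter the mucosa, and surviving epithelial cells spread and divide to close the wound. Hexokinase 2, encoded by Hk2, catalyses the entry step of glycolysis, and the series title links it to mitochondrial metabolism and cell death in colitis.

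Levels are given in counts per 1e6 counts (CPM) with TMM scaling, after histone genes, genes of the mitochondrial genome and small noncoding RNA genes were set aside. Day 0 values are in the order of d0_WT_31, d0_WT_41, d0_WT_43 and d0_WT_46, and day 7 values are the lowest, the median and the highest of d7_WT_356, d7_WT_361, d7_WT_370, d7_WT_386, d7_WT_393, d7_WT_419 and d7_WT_431. A change is the log2 fold change of day 7 over day 0 with its standard error (SE). Adjusted p is from edgeR's quasi-likelihood test with Benjamini-Hochberg adjustment over all genes tested, and a gene was called when it was under 0.05. Total counts were 12.7 to 44.9 M per day 0 library and 25.2 to 54.1 M per day 7 library, where M stands for 1e6 counts.

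The day 0 libraries belonged to another library series than those of days 3 and 7, by the prefix of their library names. Histone genes took 0.272 to 0.329% of their counts against 0.0138 to 0.0262% on day 7, small noncoding RNA genes 2.04 to 3.98% against 0.0383 to 0.0809%, and mitochondrial ribosomal RNA 7.08 to 13.8% against 0.436 to 1.96%. DSS treatment and library series therefore cannot be told apart here. The 7 WT day 3 libraries came from the same series as those of day 7, and the change of day 7 over day 3 is given beside the main one. Among them d3_WT_381 had 41.7% of its counts in the mitochondrial genome and 15.6 M counts kept, against 6.25 to 17% in the others. Among the KO libraries used below, d0_KO_32 had 61.7% and 6.35 M kept, against 9.15 to 17.5% in the other KO day 0 libraries. No fit of those comparisons left either out. Library d0_WT_31 stood apart with 525 CPM of Xist, the RNA that coats the inactive X chromosome, against 0.715 to 1.68 CPM in the other day 0 libraries and at most 0.105 CPM on day 7. Summed over 5 X and Y linked genes, Xist among them, day 0 libraries had 311 to 529 CPM with a median of 319 CPM. In d0_WT_31, the highest, nearly all of that sum was Xist, the pattern of a female, whereas the colitis mice were males. Sex was not a term in any fit. Library d0_WT_41 stood apart in antigen presentation genes, as with Cd74, the invariant chain of MHC class II, at 264 CPM against 20.8 to 28.8 CPM in the other day 0 libraries.

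Of 17083 genes tested, 9517 (55.7%) were called, 4568 higher on day 7 (26.7%) and 4949 lower (29%). These are the shares to set beside the counts of gene lists against day 0 below. With a change of at least 2-fold also required, 1694 were higher (9.92%) and 2948 lower (17.3%). In 6424 genes (37.6%) the 4 day 0 libraries and the 7 day 7 libraries did not overlap, with 2799 higher (16.4%) and 3625 lower (21.2%). More protein-coding genes were called higher than lower, with 4288 higher and 3221 lower of 14051 tested. Called long noncoding and other genes were mostly lower, with 82 higher and 1419 lower of 2122 tested. Within the later library series 15440 genes were tested between day 7 and day 3, and 3036 were called (19.7%). Of these 1679 were higher on day 7 (10.9%) and 1357 were lower (8.79%). With scaling by total counts that split was 1272 higher and 2008 lower.

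The direction of change moved with gene length. The median change of protein-coding genes was 0.43 in the shortest of 5 equal bins by length (66 to 2094 exonic bases) and -0.31 in the longest (6609 to 116820 bases). Between day 7 and day 3 the same medians were 0.07 and -0.03. With the length trend removed from each library, a setting added after seeing the data, 4875 genes were higher and 4563 lower. A gene that lost its call in that setting is marked where it is named, and for some other long genes the changed value is given. The remaining long genes, such as Dclk1 and Dnah5, are given without that value.

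**Figure D1:**
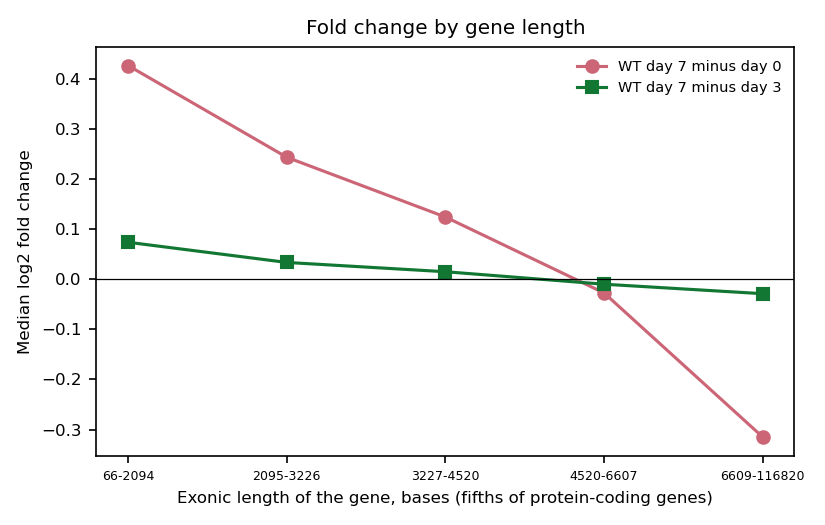
Median log2 fold change (vertical axis) in 5 equal bins of protein-coding genes by exonic length in bases (horizontal axis), for WT day 7 minus day 0 (circles) and WT day 7 minus day 3 (squares). The line for day 0 falls from 0.43 to -0.31 and the line for day 3 from 0.07 to -0.03.

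Markers of white blood cells and of fibroblasts were higher on day 7, and 7 of 12 epithelial markers were higher too, each by less than 2-fold. Of 13 tested neutrophil markers 12 were higher and none lower, with a median change of 7.96 beside a median near 0 (-0.00157) over all tested genes. Neutrophils are short-lived phagocytes that enter tissue early in inflammation. In bulk RNA, more cells of a type and more RNA per cell cannot be told apart. S100a9, a subunit of calprotectin, was at 0.449, 0.29, 0.179 and 0.127 CPM on day 0. On day 7 it ranged from 41 CPM in d7_WT_361 to 488 CPM in d7_WT_419, with a median of 82.3 CPM. All day 7 libraries lay far above all day 0 libraries, with a change of 9.55 (SE 1.18, adjusted p 2.2e-05) and of 9.50 (SE 0.87) over day 3. Its partner S100a8 went from 0.973, 0.29, 0 and 0.152 CPM to 30.7, 61.1 and 334 CPM, a change of 8.61 (SE 1.19, adjusted p 5.5e-05). Retnlg, a resistin-like neutrophil product, was between 0 and 0.374 CPM on day 0 and had 4.4, 16 and 101 CPM on day 7. Csf3r, the receptor for granulocyte colony-stimulating factor, reached 1.85, 5.76 and 53.5 CPM from at most 0.299 CPM.

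Several neutrophil genes, and other genes with large gains, had almost no counts on day 0, so their ratios carry a wide counting interval. Of those below, Fpr1, Fpr2, Il1f9 and Prl2a1 are not in the neutrophil marker list and were named for their fold change. Mmp8, the neutrophil collagenase, had 1 count in all day 0 libraries and 5657 on day 7, a ratio of 1808 with an exact 95% interval of 324 to 71437. Cxcr2, the receptor for the CXC chemokines described below, had 3 counts and then 2682, a ratio of 286 (97.7 to 1387). The formyl peptide receptors Fpr1 and Fpr2, which sense bacterial peptides, had 1 count each on day 0 and 1350 and 1590 on day 7. Il1f9, an interleukin 1 family cytokine, had 1 count and then 1282. Trem1, an amplifying receptor of myeloid cells, had 3.88, 9.23 and 62.6 CPM on day 7 against at most 0.15 CPM, and Clec4e, a receptor for mycobacterial glycolipid, had 3.79, 13.4 and 74.7 CPM against at most 0.174 CPM. Prl2a1, a prolactin family gene, had no count on day 0 and 1684 on day 7, at least 179-fold higher against a floor of 3 counts over the group. Its day 7 level was uneven, from 0.112 CPM in d7_WT_386 to 27.7 CPM in d7_WT_356.

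Ly6g, the antigen used to sort mouse neutrophils, behaved unlike the rest of its list. It was already at 23.1, 42.4, 24.5 and 40.9 CPM on day 0, where every other tested neutrophil marker was below 1 CPM in each library, and rose to 57.3, 187 and 376 CPM (change 2.56, SE 0.48, adjusted p 0.00063). The granule genes Mpo and Elane had too few counts to be tested. Summed over the list, the day 0 libraries had 26.1 to 44.3 CPM and the day 7 libraries 190 to 1574 CPM.

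Macrophage and monocyte markers followed, with 11 of 12 higher, a median change of 3.15, and a summed level of 42.8 to 55.4 CPM on day 0 and 112 to 406 CPM on day 7. Lyz2, a lysozyme of myeloid cells, had 6.36, 4.7, 1.61 and 3.14 CPM on day 0 and 14.5, 33.4 and 76.5 CPM on day 7 (change 3.52, SE 0.58, adjusted p 0.00023). Adgre1, which encodes the macrophage antigen F4/80, had at most 0.348 CPM and then 1.01, 2.16 and 5.47 CPM (change 3.45, SE 0.64, adjusted p 0.0006). Cd163, the haemoglobin scavenger receptor, was at 0 in every day 0 library and had 0.0699, 1.28 and 2.54 CPM on day 7. Pooled over the group, day 7 was at least 33.5-fold higher against a floor of 3 counts. The gain was uneven, since d7_WT_393 (0.0699 CPM) and d7_WT_386 (0.112 CPM) had fewer than 3 counts. Cd68 was the member that was not called, with a change of 0.85 (adjusted p 0.12).

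Lymphocyte and fibroblast markers were higher too, while over day 3 only 4 of 11 tested T cell markers and 1 of 10 fibroblast markers were higher. In the T cell and intraepithelial lymphocyte list 11 of 12 were higher (median 2.47, summed level 12.0 to 29.1 CPM and then 39.0 to 212 CPM). Cd3e, a chain of the T cell receptor complex, went from 0.299, 0.697, 0.0894 and 0.633 CPM to 2.03, 3.97 and 10.2 CPM, with a change of 3.34 (SE 0.56, adjusted p 0.00027) over day 0 and of 0.83 (SE 0.43, adjusted p 0.19) over day 3. Gzma, a protease of cytotoxic lymphocytes, had 0.674 to 4.41 CPM and then 5.37, 17.9 and 48.9 CPM (change 3.40, SE 0.66, adjusted p 0.00082). Fibroblast markers were higher in 8 of 10, and only 1 list member had groups that did not overlap, against 37.6% of all tested genes. Leaving out d0_WT_41, d0_WT_43 or d0_WT_46 brought the count of members called higher from 8 down to 5, 4 and 4. Sparc, a matrix protein of fibroblasts, had 1.8, 0.987, 0.358 and 0.203 CPM and then 1.33, 7.38 and 15.1 CPM, so that d7_WT_431 fell below d0_WT_31. Vim, vimentin, had 3.13 to 7.94 CPM and then 12.4, 20.7 and 83.4 CPM.

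Plasma cell genes were higher in 6 of 10 members of the B and plasma cell list. Jchain, which joins secreted antibodies into polymers, had 0.824, 0.406, 0.0894 and 0.329 CPM on day 0 and 1.48, 5.42 and 10 CPM on day 7 (change 3.75, SE 0.55, adjusted p 9.1e-05). Igha, the heavy chain of IgA, had 0.894 to 4.19 CPM and then 7.48, 17.8 and 54 CPM, and Igkc, the kappa light chain, 0.81 to 2.02 CPM and then 4.83, 12.1 and 23.1 CPM. In KO mice Igha changed by 0.69 (SE 0.41, adjusted p 0.17) and Jchain by 0.56 (SE 0.38, adjusted p 0.22), and the difference between the genotypes was not called for either gene. The summed level of the list was 290 to 460 CPM and then 322 to 422.9 CPM, since Sdc1, which epithelium also expresses, made up most of it.

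All 4 tested endothelial markers were lower, and none of 3 tested smooth muscle markers was called. Esam, an adhesion molecule of endothelium, had 1.5, 0.929, 1.25 and 0.987 CPM on day 0 and 0.169, 0.32 and 0.671 CPM on day 7 (change -1.49, SE 0.37, adjusted p 0.004). The endothelial count was 1 without d0_WT_46 and 2 without d7_WT_361 or d7_WT_431, and 2 with the length trend removed.

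Of 12 epithelial markers 7 were higher, none by 2-fold, and none was lower. The summed level was 18021 to 22684 CPM on day 0 and 21488 to 29650 CPM on day 7, and none of the 12 was called between day 7 and day 3. Epcam, an adhesion molecule of all intestinal epithelial cells, had 2074, 1783, 1620 and 1642 CPM on day 0 and 1658, 1724 and 1981 CPM on day 7 (change 0.02, SE 0.12, adjusted p 0.89). Elf3, an epithelial transcription factor, had 567, 511, 518 and 574 CPM and then 978, 1093 and 1201 CPM, with a change of 0.98 over day 0 (SE 0.11, adjusted p 6.6e-06) and of 0.08 over day 3 (SE 0.13). Lgals4, the gut lectin galectin 4, had 3638 to 5061 CPM and then 5275, 6987 and 9203 CPM. White cell, fibroblast and epithelial markers moved together with the groups, and the part of the cell mixture in the gene changes below was not tested.

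**Figure D2:**
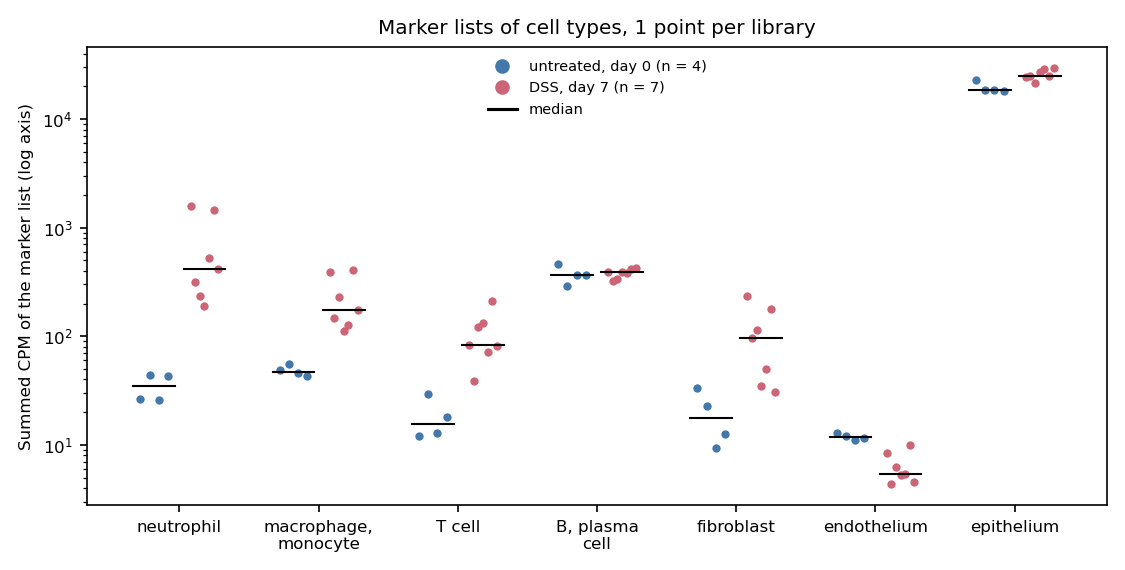
Summed CPM of each marker list (vertical log axis) in day 0 libraries (blue, n = 4) and day 7 libraries (red, n = 7), with 1 point per library and a black line at the median. Neutrophil sums rise from 26.1 to 44.3 CPM on day 0 to between 190 and 1574 CPM on day 7, whereas epithelial sums overlap.

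The antimicrobial and acute phase genes, which kill or starve bacteria at the epithelial surface, included the largest gain in mean CPM of any called protein-coding gene, that of Reg3b. Of 19 tested 11 were higher and none lower, with a median change of 1.75. Reg3b (chromosome 6, 78370885 to 78373466, plus strand), a secreted lectin that binds bacteria, had 194, 311, 118 and 541 CPM on day 0. It had 3901 CPM in d7_WT_370, a median of 10614 CPM and 32237 CPM in d7_WT_356 on day 7, so that the lowest treated library was still above every untreated one (change 5.36, SE 0.72, adjusted p 4.4e-05). The related Reg3g went from 74.6, 124, 69.3 and 242 CPM to 780, 2206 and 9991 CPM (change 4.57, SE 0.77, adjusted p 0.00027). Reg3b, Reg3g and Reg3a are close relatives, and reads shared between them are uncertain. Lypd8, which coats flagellated bacteria, was abundant before treatment and gained less, from 5438, 5549, 4200 and 5310 CPM to 6404, 7125 and 9354 CPM (change 0.60, SE 0.18, adjusted p 0.011).

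Other members of the group started near 0. Lcn2, lipocalin 2, which binds bacterial iron carriers, had 0.449, 0.0581, 0.179 and 0.152 CPM on day 0. Its day 7 values spread from 2.12 CPM in d7_WT_386 through a median of 11.5 CPM to 114 CPM in d7_WT_356, with a change of 7.44 (SE 1.4985, adjusted p 0.001). Nos2, the inducible nitric oxide synthase, had 1.42, 5.23, 1.16 and 4.23 CPM and then 28.8, 67.7 and 345.04 CPM (change 4.99, SE 0.80, adjusted p 0.00018). Saa3, an acute phase apolipoprotein, had 0.894 to 1.51 CPM and then 10.8, 40.1 and 189 CPM, whereas Saa1 was already at 286 to 657 CPM and was not called (change 0.15, adjusted p 0.72). Ltf, lactoferrin, is also a neutrophil granule protein, and had 0.299 to 0.447 CPM and then 1.17, 6.74 and 47.5 CPM. Library d7_WT_356 was the highest library for Reg3b, Reg3g, Lcn2, Saa3, Nos2 and Ltf alike.

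Dmbt1 and Ceacam1, outside that list, were among the 8 largest gains in mean CPM. Dmbt1, a mucosal scavenger protein that binds bacteria, had 6905, 6167, 5094 and 6336 CPM on day 0 and 9290, 14098 and 24664 CPM on day 7 (change 1.40, SE 0.27, adjusted p 0.00073). Ceacam1, an adhesion molecule of the apical membrane, had 2162, 2512, 1703 and 2643 CPM and then 2856, 4728 and 7157 CPM (change 1.10, SE 0.25, adjusted p 0.0022). Both were also higher than on day 3, by 1.27 (SE 0.19) and 0.82 (SE 0.18).

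Chemokines, the secreted attractants of white blood cells, were higher in 13 of 16 tested genes and lower in none, with a median change of 3.19. The Cxcl1, Cxcl2 and Cxcl3 genes lie in 1 cluster on chromosome 5 and encode ligands of Cxcr2. Their promoters are shown because all 3 genes were higher and share a motif. Below are the 250 bases before the start of each gene on the plus strand, from RefSeq on GRCm38.p6, whose starts need not be those of the deposited files, at chr5:90890995-90891244 for Cxcl1, chr5:90903649-90903898 for Cxcl2 and chr5:90785851-90786100 for Cxcl3. Capitals mark matches to GGGANNTTCC, a form of the NF-kB motif, on either strand; the match on each strand overlaps that on the other.
Cxcl1: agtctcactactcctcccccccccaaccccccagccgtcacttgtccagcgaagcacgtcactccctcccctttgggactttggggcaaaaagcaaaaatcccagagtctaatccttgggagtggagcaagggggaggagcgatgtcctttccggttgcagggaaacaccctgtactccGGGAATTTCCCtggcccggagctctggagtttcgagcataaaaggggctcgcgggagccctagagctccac
Cxcl2: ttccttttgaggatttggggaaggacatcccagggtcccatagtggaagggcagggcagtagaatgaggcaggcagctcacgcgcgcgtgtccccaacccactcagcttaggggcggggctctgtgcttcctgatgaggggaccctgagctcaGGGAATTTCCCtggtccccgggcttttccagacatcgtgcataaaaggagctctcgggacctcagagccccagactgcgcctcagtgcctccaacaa
Cxcl3: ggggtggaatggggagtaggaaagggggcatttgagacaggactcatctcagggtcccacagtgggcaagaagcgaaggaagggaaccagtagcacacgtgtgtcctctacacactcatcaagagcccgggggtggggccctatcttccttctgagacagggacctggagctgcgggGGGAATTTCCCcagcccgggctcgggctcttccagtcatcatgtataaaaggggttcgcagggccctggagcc

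The motif began 71, 97 and 73 bases before the start of Cxcl1, Cxcl2 and Cxcl3. It was found in 397 of 32851 promoters of this length (1.21%). Of the 16 chemokine genes 10 had a promoter in the table, and 4 of these held it, the fourth being Cxcl10. In the list of NF-kB feedback genes 2 of 9 held it, Nfkb2 and Nfkbia. The motifs were chosen from 5 tried after the sequences had been seen, and a match is a description of letters only.

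Cxcl1 (90891241 to 90893115 on chromosome 5) had 2.55, 1.39, 2.5 and 2.35 CPM on day 0 and 10.5, 16.6 and 26.8 CPM on day 7, a narrow spread around a change of 2.97 (SE 0.29, adjusted p 2.8e-06). Its change over day 3 was 1.10 (SE 0.47, adjusted p 0.12). Cxcl2 (90903871 to 90905938) had 1.72, 0.755, 0.536 and 0.405 CPM and then 18.9, 52.4 and 303 CPM (change 7.16, SE 1.01, adjusted p 6.7e-05). Cxcl3 (90786103 to 90789600) had at most 0.449 CPM and then 2.85, 11.1 and 89 CPM (change 7.93, SE 1.63, adjusted p 0.0012). Cxcl2 and Cxcl3 also differed from day 3, by 6.14 (SE 0.68) and 7.78 (SE 1.03). Cxcl5, another Cxcr2 ligand, had 0.449, 0.813, 0.805 and 2.3 CPM and then 4.97, 16 and 73.2 CPM.

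Attractants of monocytes and lymphocytes were also among the higher genes. Ccl3 and Ccl4, which bind receptors of monocytes and T cells, had at most 0.225 and 0.348 CPM on day 0 and medians of 7.93 and 8.7 CPM on day 7, with changes of 6.89 (SE 1.30, adjusted p 0.00065) and 5.97 (SE 1.16, adjusted p 0.00082). Ccl2, the monocyte attractant, had at most 0.15 CPM and then 0.335, 0.774 and 3.69 CPM. Cxcl9 and Cxcl10, interferon-induced ligands of Cxcr3, a chemokine receptor of T cells, overlapped between the groups. For Cxcl9 the day 0 values were 0.15, 2.61, 0.715 and 0.937 CPM and those of day 7 were 0.594, 6.93 and 23.7 CPM (change 2.85, SE 0.97, adjusted p 0.023), and the call was lost without d0_WT_31, d0_WT_43 or d0_WT_46.

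**Figure D3:**
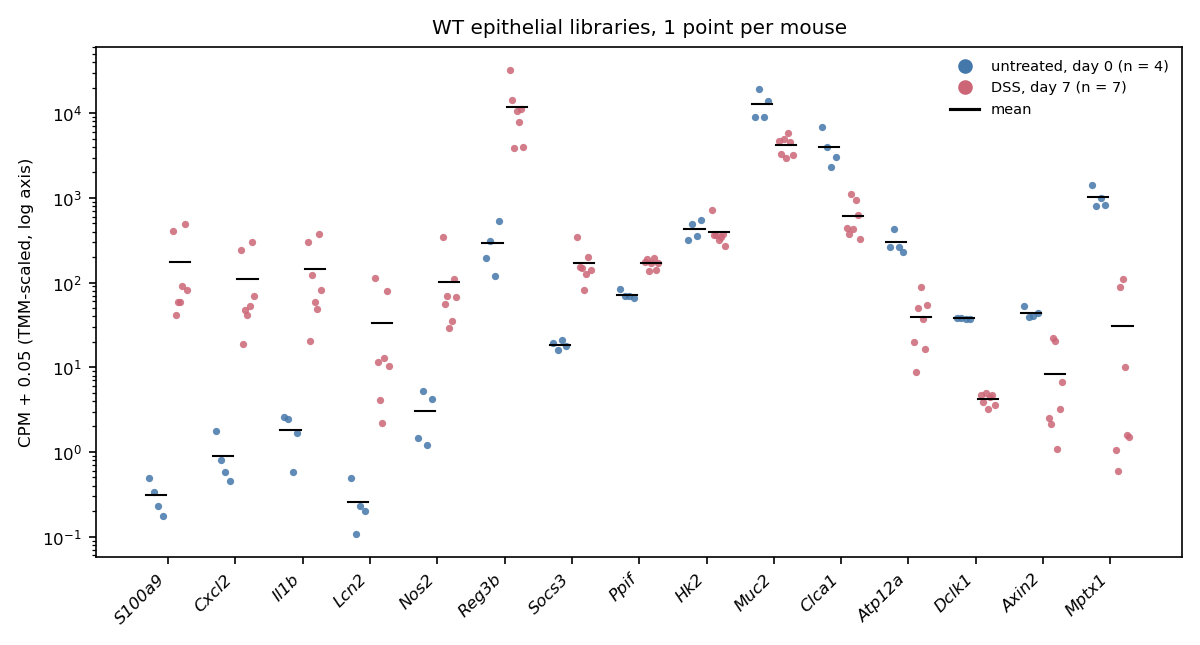
CPM plus 0.05 (vertical log axis) of selected genes in day 0 libraries (blue, n = 4) and day 7 libraries (red, n = 7), with 1 point per mouse and a black line at the mean. S100a9, Cxcl2, Il1b, Lcn2, Nos2, Reg3b and Socs3 are higher without overlap on day 7, Muc2, Clca1, Atp12a, Dclk1, Axin2 and Mptx1 are lower without overlap, and Hk2 overlaps with d7_WT_356 at 720 CPM.

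Cytokines and their receptors were higher in 14 of 20 and lower in 2. Il1b, interleukin 1 beta, had 2.55, 2.38, 0.536 and 1.62 CPM on day 0 and 20.5, 81.4 and 372 CPM on day 7 (change 6.32, SE 0.92, adjusted p 8.3e-05). Il1a had 0.225 to 0.536 CPM and then 2.53, 11.9 and 110 CPM, and the decoy receptor for both cytokines, Il1r2, had at most 0.304 CPM and then 4.42, 8.24 and 70.5 CPM. Osm, oncostatin M, a cytokine of the interleukin 6 family, had at most 0.225 CPM and then 3.14, 6.57 and 37 CPM (change 7.66, SE 1.18, adjusted p 0.00013). Il6 itself stayed low, at most 0.116 CPM and then 0.421, 1.05 and 4.71 CPM (change 4.99, SE 0.97, adjusted p 0.0008). Library d7_WT_361 was the lowest day 7 library for Il1b, Il1a, Osm and Il6, and d7_WT_419 or d7_WT_356 the highest.

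Feedback genes of the receiving pathways were also higher in part. NF-kB, a transcription factor released by interleukin 1, TNF and bacterial products, induces its own inhibitors. Of 12 such genes 6 were higher and 1 lower, against 26.7% and 29% of all tested genes, with a median change of 0.59. Nfkbia, which encodes the inhibitor IkB alpha, had 189, 134, 111 and 149 CPM on day 0 and 254, 416 and 516 CPM on day 7 (change 1.54, SE 0.21, adjusted p 4e-05). Tnfaip3, the deubiquitinase A20, had 79.8 to 113 CPM and then 190, 219 and 357 CPM (change 1.34, SE 0.19, adjusted p 6.4e-05). Zc3h12a, an RNase that degrades cytokine transcripts, had 37.3 to 56.3 CPM and then 90.2, 132 and 263 CPM. Tnfaip2, a TNF-induced gene, had 0.358 to 0.987 CPM and then 4.28, 7.9 and 50.1 CPM. All 4 were also higher than on day 3, by 0.77 (SE 0.23), 0.99 (SE 0.25), 0.73 (SE 0.22) and 3.97 (SE 0.58).

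STAT3 relays interleukin 6, oncostatin M and interleukin 22. Of 12 target genes of this pathway 9 were higher and none lower, against 26.7% and 29% of all tested genes. Their median change was 1.00. Socs3, the feedback inhibitor of this pathway, had 19.3, 16.1, 20.8 and 17.7 CPM on day 0 and 80.9, 149 and 347 CPM on day 7 (change 3.21, SE 0.34, adjusted p 5.8e-06). Over day 3 it was higher by 1.62 (SE 0.34, adjusted p 0.0036), and in KO mice day 7 exceeded day 0 by 3.20 (SE 0.27). Tifa, an adaptor downstream of the kinase that senses a bacterial sugar, had 40.3 to 51 CPM and then 103, 145 and 378 CPM. Steap4, a metalloreductase, had 1.79 to 3.52 CPM and then 6.82, 13.8 and 31.5 CPM, and Pim1, a kinase, 18.6 to 22.5 CPM and then 38.1, 52.9 and 89.3 CPM. The Reg3b and Socs3 promoters are given for comparison, 250 bases before the start on the strand of the gene, from RefSeq on GRCm38.p6, at chr6:78370635-78370884 (plus) and chr11:117969367-117969616 (minus). Capitals mark TTCNNNGAA, a form of the STAT motif, read on both strands, which its palindromic form makes the same site.
Reg3b: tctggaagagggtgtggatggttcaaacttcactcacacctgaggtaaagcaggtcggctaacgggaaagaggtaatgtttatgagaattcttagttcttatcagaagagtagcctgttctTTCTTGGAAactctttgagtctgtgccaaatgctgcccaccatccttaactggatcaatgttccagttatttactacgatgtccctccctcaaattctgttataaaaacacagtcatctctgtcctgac
Socs3: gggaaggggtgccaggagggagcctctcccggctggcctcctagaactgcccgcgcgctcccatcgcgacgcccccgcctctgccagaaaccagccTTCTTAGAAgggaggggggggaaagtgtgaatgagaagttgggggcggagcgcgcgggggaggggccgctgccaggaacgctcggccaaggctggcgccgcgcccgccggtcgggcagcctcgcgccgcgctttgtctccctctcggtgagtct

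That motif began 129 bases before the Reg3b start and 154 before the Socs3 start. It is common, in 2306 of 32851 promoters (7.02%), and was in 2 of 9 STAT3 target promoters (Socs3 and Steap4) and in 2 of 16 antimicrobial ones (Ang4 and Reg3b).

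Interferon-stimulated genes, which cells switch on against viruses and intracellular bacteria, showed no common direction. Of 24 tested 2 were higher, 2 lower and 20 not called, with a median change of 0.21. Zbp1, a sensor of left-handed nucleic acid, had 9.36, 45.1, 15.2 and 15.2 CPM on day 0 and 27.1, 49.6 and 70.5 CPM on day 7 (change 1.16, SE 0.40, adjusted p 0.025). Ifit2, an antiviral RNA-binding protein, had 4.04, 15, 2.77 and 5.32 CPM and then 5.52, 15.3 and 44.3 CPM (change 1.62, SE 0.61, adjusted p 0.037). Rsad2 (viperin) fell from 15.6, 34.1, 17.5 and 35.5 CPM to 2.76, 9.84 and 13.5 CPM (change -1.56, SE 0.37, adjusted p 0.0032), and Mx1, a dynamin-like antiviral GTPase, from 9.43 to 14.9 CPM to 2.88, 4.82 and 9.99 CPM (change -1.06, SE 0.31, adjusted p 0.0099). Day 0 d0_WT_41 was the highest untreated library for Zbp1, Ifit2 and Mx1. Without it 8 of the 24 were higher and Zbp1 changed by 1.84, whereas without d0_WT_31, d0_WT_43 or d0_WT_46 none was higher and the calls of Zbp1 and Ifit2 were lost.

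MHC class II genes, which present extracellular antigen, moved the same way with that library. Of 8 tested 2 were higher with all day 0 libraries, near the 26.7% of all tested genes called higher. The count was 7 without d0_WT_41 and 1 without d0_WT_43 or d0_WT_46. H2-Eb1, a class II chain, had 10.9, 38.5, 4.83 and 7.57 CPM on day 0 and 32.1, 48.3 and 83.8 CPM on day 7, with a change of 1.75 (SE 0.48, adjusted p 0.0074) and of 2.74 without d0_WT_41. H2-DMa, which loads peptides, changed by 1.31 (SE 0.45, adjusted p 0.025), by 2.28 without d0_WT_41, and was not called without d0_WT_31, d0_WT_43 or d0_WT_46 or with the length trend removed. Cd74 was not called with all libraries (change 1.28, SE 0.65, adjusted p 0.11) and changed by 3.01 (adjusted p 7.5e-05) without d0_WT_41. Over day 3, 7 of the 8 were higher. For class I presentation 5 of 12 were higher and 1 lower, against 26.7% and 29% of all tested genes, with 8 higher without d0_WT_41. B2m, the class I light chain, had 267, 496, 219 and 252 CPM and then 443, 503 and 771 CPM (change 0.84, SE 0.23, adjusted p 0.0077).

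The genes that absorb salt and water in the colon were mostly lower. Of 23 tested 12 were lower and 2 higher, against 29% and 26.7% of all tested genes, with a median change of -0.39. Atp12a, the colonic proton-potassium pump, had 264, 430, 264 and 232 CPM on day 0 and 8.83, 37.4 and 89.4 CPM on day 7 (change -2.92, SE 0.47, adjusted p 0.00021), and was lower than on day 3 by a change of -1.91 (SE 0.47). In KO mice its change was -0.12 (SE 1.05, adjusted p 0.93), and the difference between genotypes was not called. Slc26a3, the chloride-bicarbonate exchanger, had 1244, 1379, 939 and 1166 CPM and then 303, 477 and 588 CPM (change -1.37, SE 0.18, adjusted p 3.8e-05). Aqp8, a water channel of surface colonocytes, had a mean of 557 CPM on day 0 (SD 153, n = 4) and then 59.7, 114 and 352.01 CPM, so that d7_WT_431 reached the level of d0_WT_43, the lowest untreated library.

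The higher members of the transport list were Car1 and Guca2b. Car1, a carbonic anhydrase of colonocytes, had 2611, 2544, 2271 and 3475 CPM on day 0 and 4373, 10925 and 13662 CPM on day 7 (change 1.86, SE 0.29, adjusted p 0.00014), with a change of 0.54 (SE 0.25, adjusted p 0.16) over day 3. Guca2b, the hormone uroguanylin, had 6.35 to 16.2 CPM and then 14.8, 34.8 and 43.1 CPM.

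Goblet cell genes, which build and secrete the mucus layer, were lower in 10 of 17 and higher in 2. Summed over the list, day 0 libraries had 24910 to 42224 CPM and day 7 libraries 11674 to 18194 CPM, without overlap. Muc2, the gel-forming mucin, had 8929, 19155, 9034 and 14106 CPM on day 0 and 2974, 4561 and 5800 CPM on day 7 (change -1.60, SE 0.25, adjusted p 0.00015). Clca1, a protease of mucus, had 6794, 3946, 2338 and 3071 CPM and then 324, 443 and 1124 CPM (change -2.72, SE 0.36, adjusted p 4.1e-05). Fcgbp, a protein crosslinked into mucus, had 12424, 10682, 5966 and 7691 CPM and then 766, 1696 and 2627 CPM (change -2.46, SE 0.30, adjusted p 1.9e-05). Fer1l6, a ferlin, had 120 to 222 CPM and then 23.3, 42.5 and 65 CPM.

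Relative to day 3 the mucus genes parted. Clca1 was lower by a change of -1.57 (SE 0.36, adjusted p 0.0064), whereas Muc2 changed by -0.22 (SE 0.16, adjusted p 0.37) and Fcgbp by -0.76 (SE 0.32, adjusted p 0.12). Zg16, a lectin of mucus that aggregates bacteria, had 4528, 2940, 2603 and 2387 CPM on day 0 and 1561, 1720 and 3132 CPM on day 7 (change -0.68, SE 0.22, adjusted p 0.02). Without d0_WT_31 the change of Zg16 was -0.42 (adjusted p 0.11) and 6 members of the list were lower. Ccl9, a chemokine in the goblet list, rose from 8.94 to 22.8 CPM to 27.2, 39.5 and 65.7 CPM. Mptx1, a mucosal pentraxin outside the list, had 1439, 796, 999 and 830 CPM on day 0 and 0.548, 1.54 and 110 CPM on day 7 (change -5.06, SE 1.25, adjusted p 0.004), with d7_WT_370 (89.6 CPM) and d7_WT_386 (110 CPM) far above the other day 7 libraries, which were at most 10.1 CPM. Over day 3 Mptx1 changed by -5.28 (SE 1.18, adjusted p 0.0057).

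Tuft cell genes were lower in 7 of 11, each by at least 2-fold, and higher in 1. Between day 7 and day 3, 1 of the 11 was lower and 1 higher, with a median change of -0.24. Tuft cells are rare chemosensory cells of the epithelium. Dclk1, a microtubule-associated kinase used as their marker, was nearly constant among day 0 libraries, at 38.5, 38.1, 37 and 37 CPM, and had 3.13, 4.37 and 4.91 CPM on day 7 (change -3.17, SE 0.13, adjusted p 9.5e-09). Its change over day 3 was -0.97 (SE 0.39, adjusted p 0.091). Trpm5, a cation channel of taste transduction, had 23.1 to 31.9 CPM and then 3.98, 5.16 and 9.05 CPM (change -2.19, SE 0.22, adjusted p 3.7e-06). Gnat3, the taste G protein gustducin, had 1.7 to 3.14 CPM and then 0.0559, 0.358 and 0.774 CPM, and Tas1r3, a taste receptor, 4.57 to 7.47 CPM and then 1.25, 1.77 and 2.28 CPM. The higher member was Alox5ap, the 5-lipoxygenase activating protein, which myeloid cells also express, from 1.45 to 1.67 CPM to 2.68, 6.47 and 27.9 CPM.

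Hormone-producing enteroendocrine cells went the other way, with 7 of 14 genes higher and 1 lower, against 26.7% and 29% of all tested genes. Gcg, which encodes glucagon-like peptides, had 28.2, 35.2, 22.2 and 27.5 CPM on day 0 and 48.7, 63.4 and 119 CPM on day 7 (change 1.34, SE 0.23, adjusted p 0.00028). Chgb, a secretory granule protein, had 87.1 to 125 CPM and then 136, 209 and 489 CPM. Insl5, a hormone of the distal colon, was the lower one, from 20.3 to 28.1 CPM to 4.7, 9.28 and 18.9 CPM. Between day 7 and day 3 none of the 14 was higher and only Insl5 was lower (change -0.96, SE 0.30, adjusted p 0.037).

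Stem cell and Wnt target genes, which mark the crypt base, were lower in 10 of 18 and higher in 1, with a median change of -0.83. The summed level was 1153 to 1233 CPM on day 0 and 659 to 931 CPM on day 7. Axin2, a Wnt feedback gene, had 52.3, 39.7, 40.6 and 43.4 CPM on day 0 and 1.05, 3.21 and 21.9 CPM on day 7 (change -2.43, SE 0.66, adjusted p 0.0075). Ephb3, a receptor that positions cells in the crypt, had 42.7 to 59.5 CPM and then 8.54, 11.9 and 34.7 CPM (change -1.64, SE 0.35, adjusted p 0.0016). Smoc2, a matrix protein of the crypt base, had 41.4, 39, 37.8 and 26.8 CPM and then 6.94, 8.55 and 39.6 CPM, with d7_WT_386 at the day 0 level. Tnfrsf19, a receptor called Troy, had 1.52 to 5.32 CPM and then 0.14, 0.419 and 2.67 CPM (change -2.03, SE 0.66, adjusted p 0.018), a call lost without d0_WT_31. Lrig1, a brake on EGF receptor signalling in stem cells, had 223 to 271 CPM and then 85.2, 106 and 134 CPM. Myc, a growth-promoting Wnt target, was the higher member, from 12.5 to 17.4 CPM to 20.1, 24.1 and 35.2 CPM.

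Of 25 proliferation genes 4 were higher and 6 lower, none by 2-fold, both shares below those over all tested genes (26.7% and 29%). Mki67, the Ki-67 antigen, had 205, 424, 426 and 362 CPM on day 0 and 121, 165 and 244 CPM on day 7 (change -0.93, SE 0.22, adjusted p 0.0031), and Top2a, a DNA topoisomerase, had 215 to 305 CPM and then 89.7, 139 and 178 CPM (change -0.92, SE 0.19, adjusted p 0.0011). Both transcripts are long, and with the length trend removed the changes were -0.53 and -0.58. Their changes over day 3 were -0.07 (SE 0.15, adjusted p 0.79) and -0.17 (SE 0.14, adjusted p 0.44). Between day 7 and day 3 none of the 25 genes was higher and 1 was lower. Rrm2, a subunit of ribonucleotide reductase, was higher, from 18.5 to 23.8 CPM to 27.8, 35.8 and 54.8 CPM (change 0.79, SE 0.17, adjusted p 0.0017).

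Of 7 tested genes that mark distal position along the gut 2 were higher and 2 lower, the shares found over all tested genes (26.7% and 29%), and 3 were not called. Over day 3 none of the 7 was higher and 5 were lower. Hoxb13, a homeobox gene of the distal colon, had 233, 216, 265 and 223 CPM on day 0 and 12.1, 47.1 and 124 CPM on day 7 (change -1.88, SE 0.44, adjusted p 0.003). Hoxa13 had 44.9 to 74.5 CPM and then 11.8, 28.1 and 37.7 CPM (change -1.06, SE 0.26, adjusted p 0.0036). Hoxd13 had 0.674, 0.465, 4.29 and 1.87 CPM and then 2.39, 4.01 and 19 CPM, higher by 2.16 over day 0 (SE 0.71, adjusted p 0.019) but lower than on day 3 by a change of -2.29 (SE 0.62, adjusted p 0.017). Its day 0 call was lost without d0_WT_31 or d0_WT_41. Library d7_WT_431 was the highest day 7 library for Hoxb13, Hoxa13, Hoxd13 and Hoxd11, and d7_WT_419 the lowest. Hoxd11 had 3 counts on day 0 and 165 on day 7. Of 16 small intestine enterocyte genes 5 were higher and 3 lower, against 26.7% and 29% of all tested genes, and 8 were not called. Slc10a2, the ileal bile acid transporter, had 4.49, 20.3, 8.14 and 24 CPM on day 0 and 25.3, 56.8 and 97.2 CPM on day 7, and Reg3a had at most 0.38 CPM and then 1.34, 4 and 34.8 CPM. The lower members were Lct, Dpp4 and Apob. Lct, lactase, had 0.447 to 1.16 CPM and then 0.0524, 0.0657 and 0.105 CPM (change -3.10, SE 0.39, adjusted p 2.3e-05). Dpp4, a peptidase of the brush border, had 49.6 to 65.9 CPM and then 31, 38.7 and 44.9 CPM (change -0.60, SE 0.11, adjusted p 0.00046). Apob, the protein of chylomicrons, had 110 to 269 CPM and then 57.1, 116 and 164 CPM (change -0.87, SE 0.26, adjusted p 0.012), was not called with the length trend removed (change -0.30), and was higher than on day 3 by 0.80 (adjusted p 0.017).

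Repair genes that intestinal epithelium expresses in the fetus and again after injury were higher in 16 of 21 and lower in none, with a median change of 1.03. Over day 3, 6 of 20 were higher. Sprr2h, a cornified envelope protein, had 3 counts on day 0 and 1693 on day 7, a ratio of 180 (61.6 to 876). Ctgf, a target of the YAP pathway, had 0.076 to 0.179 CPM and then 0.838, 2.59 and 5.26 CPM (change 4.20, SE 0.67, adjusted p 0.00019). Spp1, osteopontin, which macrophages also make, had at most 0.174 CPM and then 0.464, 1.49 and 13.8 CPM.

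Ligands and receptors of the EGF receptor family, which take part in epithelial repair, had no common direction. Of 13 tested 5 were higher and 4 lower, close to the shares over all tested genes (26.7% higher and 29% lower). Ereg, epiregulin, had 1.42, 2.15, 2.86 and 3.97 CPM on day 0 and 8.41, 14.8 and 27.4 CPM on day 7 (change 2.64, SE 0.40, adjusted p 0.00011). Nrg1, neuregulin 1, had 1 count on day 0 and 334 on day 7, a ratio of 107 (19.03 to 4229). The lower members were Egf, Egfr, Erbb3 and Lrig1. Egfr, the receptor itself, had 78.8 to 104.5 CPM and then 44.1, 55.7 and 73.3 CPM (change -0.71, SE 0.13, adjusted p 0.00053), and changed by -0.25 with the length trend removed. Egf, its founding ligand, had 8.23 to 11.9 CPM and then 4.59, 6.08 and 6.77 CPM (change -0.80, SE 0.17, adjusted p 0.0013). Erbb3, a receptor partner, had 547 to 769 CPM and then 271, 522 and 609 CPM (change -0.50, SE 0.19, adjusted p 0.037). The calls of Egf and Erbb3 were lost with the length trend removed (changes of -0.35 and -0.38), and that of Erbb3 also without d0_WT_31, d0_WT_41, d0_WT_46, d7_WT_370 or d7_WT_431 and with no filter on low counts.

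Matrix proteases and their inhibitors had one of the highest medians, 3.67, with 12 of 15 higher and 1 lower. Mmp9, a gelatinase that neutrophils store, had 3 counts on day 0 and 4578 on day 7, a ratio of 488 (167 to 2366). Mmp10, a stromelysin, had 2 counts and then 1012, a ratio of 162 (44.7 to 1337). Mmp3, another stromelysin, had at most 0.116 CPM and then 1.23, 2.52 and 15 CPM, and Mmp13, a collagenase, at most 0.232 CPM and then 2.76, 6.16 and 26.3 CPM. Plat, tissue plasminogen activator, had 0.406 to 1.37 CPM and then 2.61, 37.7 and 81.7 CPM (change 5.40, SE 0.99, adjusted p 0.00053). Timp1, a metalloprotease inhibitor, was at 0 in 3 day 0 libraries and at 0.228 CPM in d0_WT_46, and had 0.337, 1.28 and 7.1 CPM on day 7. Its change was 4.53 (SE 1.13, adjusted p 0.0042), and 9.06 without d0_WT_46, when every day 0 library was at 0 and the fitted value is no bound. Timp3, the inhibitor bound to matrix, was the lower member, from 8.46, 9, 12.5 and 21 CPM to 1.78, 2.98 and 3.75 CPM.

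Of 14 prostaglandin genes 3 were higher and 4 lower, close to the shares over all tested genes (26.7% and 29%). Ptgs2, the inducible cyclooxygenase, had 0.599, 0.639, 0.358 and 0.43 CPM on day 0 and 5.08, 29.2 and 176 CPM on day 7 (change 6.77, SE 1.18, adjusted p 0.00035). Ptger4, the receptor for prostaglandin E on epithelium, had 60.3 to 111 CPM and then 22.9, 39.2 and 54.2 CPM (change -1.07, SE 0.21, adjusted p 0.00081). Tbxas1, thromboxane synthase, was lower than on day 0 (change -1.48, SE 0.44, adjusted p 0.013) and higher than on day 3 (change 2.66, SE 0.49, adjusted p 0.0015).

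Hk2 (chromosome 6, 82725025 to 82774454, minus strand) did not pass the test between day 7 and day 0. It had 314, 486.4, 357 and 554 CPM on day 0 and 271 CPM in d7_WT_431, a median of 362 CPM and 720 CPM in d7_WT_356 on day 7, so that the groups overlapped (change -0.12, SE 0.24, adjusted p 0.69). Without d7_WT_356 the change was -0.33 (adjusted p 0.096). Over day 3, Hk2 was higher on day 7 by 0.92 (SE 0.22, adjusted p 0.0076). In KO mice, whose epithelial Hk2 is targeted, the change over day 0 was 0.85 (SE 0.36, adjusted p 0.06).

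The rest of glycolysis was mostly higher, with 17 of 27 genes higher and 2 lower, against 26.7% and 29% of all tested genes. The median change was 0.59. Gapdh had 421.1, 355, 370 and 391 CPM on day 0 and 753, 874 and 989 CPM on day 7 (change 1.18, SE 0.12, adjusted p 2.8e-06). Pfkfb3, which makes the activator of phosphofructokinase, had 2.02 to 3.57 CPM and then 5.14, 14.4 and 73.2 CPM (change 3.17, SE 0.69, adjusted p 0.0018). Slc16a3, a lactate exporter, had 5.54 to 10.9 CPM and then 12.4, 19.2 and 48.2 CPM. Pdk4, a kinase that inhibits pyruvate dehydrogenase, had 12 to 20.4 CPM and then 26.6, 53.4 and 118 CPM. Eno3, an enolase isoform, was lower, from 106, 107, 101 and 110 CPM to 6.01, 15.3 and 54.9 CPM (change -2.42, SE 0.48, adjusted p 0.00099), and by -2.38 (SE 0.43) over day 3. Over day 3, 12 of the 27 were higher and 3 lower.

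Fatty acid oxidation and ketogenesis genes were higher in 20 of 27 and lower in 1, with a median change of 0.60. Between day 7 and day 3, 5 of the 27 were higher and 1 lower, with a median change of 0.20. Colonocytes take most of their energy from oxidising butyrate. Acadl, a dehydrogenase of long-chain fatty acids, had 111, 101, 99.3 and 101 CPM on day 0 and 320, 471 and 535 CPM on day 7 (change 2.11, SE 0.15, adjusted p 2.9e-07). Etfa, an electron carrier of this pathway, had 83.4 to 106 CPM and then 207, 235 and 314 CPM. Ucp2, a mitochondrial carrier protein, had 239 to 312 CPM and then 519, 599 and 647 CPM. Acadl was also higher than on day 3, by 0.91 (SE 0.13), whereas Ucp2 changed by -0.02 (SE 0.08, adjusted p 0.86).

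Nuclear genes of oxidative phosphorylation, the respiratory chain and ATP synthase, were higher in 29 of 46 and lower in none, with a median change of 0.51 and 3 genes past 2-fold. Between day 7 and day 3 none of the 46 was called, with a median of 0.15. Against day 0, the count of genes called higher fell from 29 to 18 without d0_WT_41 and to 17 without d0_WT_46. Uqcrq, a subunit of complex III, had 89.5, 64.7, 77.5 and 69.3 CPM on day 0 and 155, 179 and 364 CPM on day 7 (change 1.49, SE 0.23, adjusted p 0.00015). Cox5a, of complex IV, had 153 to 225 CPM and then 289, 339 and 486.6 CPM, and Atp5j, of ATP synthase, 106 to 146 CPM and then 210, 244 and 427 CPM. Uqcrq and Cox5a are short genes. In the shortest length bin of protein-coding genes the median change was 0.43, with 44.1% called higher. How much of the list's change went with gene length is not given here.

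Antioxidant genes were higher in 16 of 19 and lower in none (median 0.88). Between day 7 and day 3, 4 of the 19 were higher and none lower (median 0.29). Mt2, a metallothionein that binds zinc and copper, had 16.2, 9.17, 6.26 and 9.32 CPM on day 0 and 37.1, 68.9 and 227 CPM on day 7 (change 3.19, SE 0.51, adjusted p 0.00019). Its change over day 3 was 0.47 (SE 0.38, adjusted p 0.43). Hmox1, which degrades haem, had 1.97 to 2.89 CPM and then 5.92, 15 and 44 CPM. Gpx2, the glutathione peroxidase of gut epithelium, had 170 to 260 CPM and then 401, 648 and 996 CPM (change 1.56, SE 0.21, adjusted p 5e-05). Slc7a11, the cystine importer, changed by 2.02 (SE 0.63, adjusted p 0.016), a call lost without d0_WT_46, and by 2.90 (SE 0.48) over day 3.

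Of 36 xenobiotic metabolism genes 12 were higher and 6 lower, against 26.7% and 29% of all tested genes, with 3 lower without d0_WT_31 or d7_WT_356 and 2 without d0_WT_46. Cyp2c66, a cytochrome P450, had 0, 1.16, 0.0894 and 0.987 CPM on day 0 and 7.43, 18.4 and 24.5 CPM on day 7, and Gsta1, a glutathione transferase, 4.65 to 8.53 CPM and then 13.5, 43.2 and 69 CPM. Of 17 hypoxia response genes 11 were higher and 2 lower, against the same shares of all tested genes. Between day 7 and day 3, 7 of the 17 were higher and 1 lower. Egln3, a prolyl hydroxylase that low oxygen induces, had 19.6, 20.4, 19.3 and 22.4 CPM and then 44.4, 92.7 and 140 CPM (change 2.21, SE 0.28, adjusted p 2.8e-05). Ndrg1 had 108 to 232 CPM and then 294, 432 and 567.5 CPM, and Bnip3, a mitophagy receptor, 4.2 to 8.88 CPM and then 7.47, 16.1 and 31.4 CPM. Library d7_WT_370 was the lowest and d7_WT_431 the highest day 7 library for Egln3, Ndrg1, Bnip3, Cyp2c66 and Gsta1.

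Cell death genes were higher in 16 of 26 and lower in none, against 26.7% and 29% of all tested genes. The median change was 0.56. Ripk3, the kinase of necroptosis, had 26.8, 34.5, 26.9 and 32.8 CPM on day 0 and 80.5, 82.5 and 147 CPM on day 7 (change 1.65, SE 0.18, adjusted p 6.9e-06). Its substrate Mlkl, which ruptures the membrane, had 21.1 to 30.8 CPM and then 33.3, 42.3 and 52.6 CPM (change 0.82, SE 0.14, adjusted p 0.00036). Gsdmd, the pore protein of pyroptosis, had 140 to 156 CPM and then 189, 242 and 328 CPM (change 0.78, SE 0.16, adjusted p 0.001), and Casp8, the initiator caspase, 132 to 151 CPM and then 172, 195 and 236 CPM. These 4 genes were also higher than on day 3, by 1.39 (SE 0.19), 0.60 (SE 0.13), 0.79 (SE 0.14) and 0.50 (SE 0.15).

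Over day 3, 8 of 25 tested cell death genes were higher and 2 lower. Ppif and Bax were called against day 0 and not against day 3. Ppif (chromosome 14, 25694154 to 25700468, plus strand) encodes cyclophilin D, which opens the mitochondrial permeability transition pore. It had 83.5, 69.9, 68.5 and 65.8 CPM on day 0 and 136, 171 and 193 CPM on day 7, without overlap (change 1.23, SE 0.12, adjusted p 3.4e-06). Its change over day 3 was 0.07 (SE 0.09, adjusted p 0.63), and in KO mice day 7 exceeded day 0 by 0.66 (SE 0.08, adjusted p 1.9e-05). Bax, which permeabilises the outer membrane, had 18.8 to 23.6 CPM and then 36.3, 41.2 and 54.9 CPM, with a change of 0.23 (SE 0.12, adjusted p 0.21) over day 3.

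**Figure D4:**
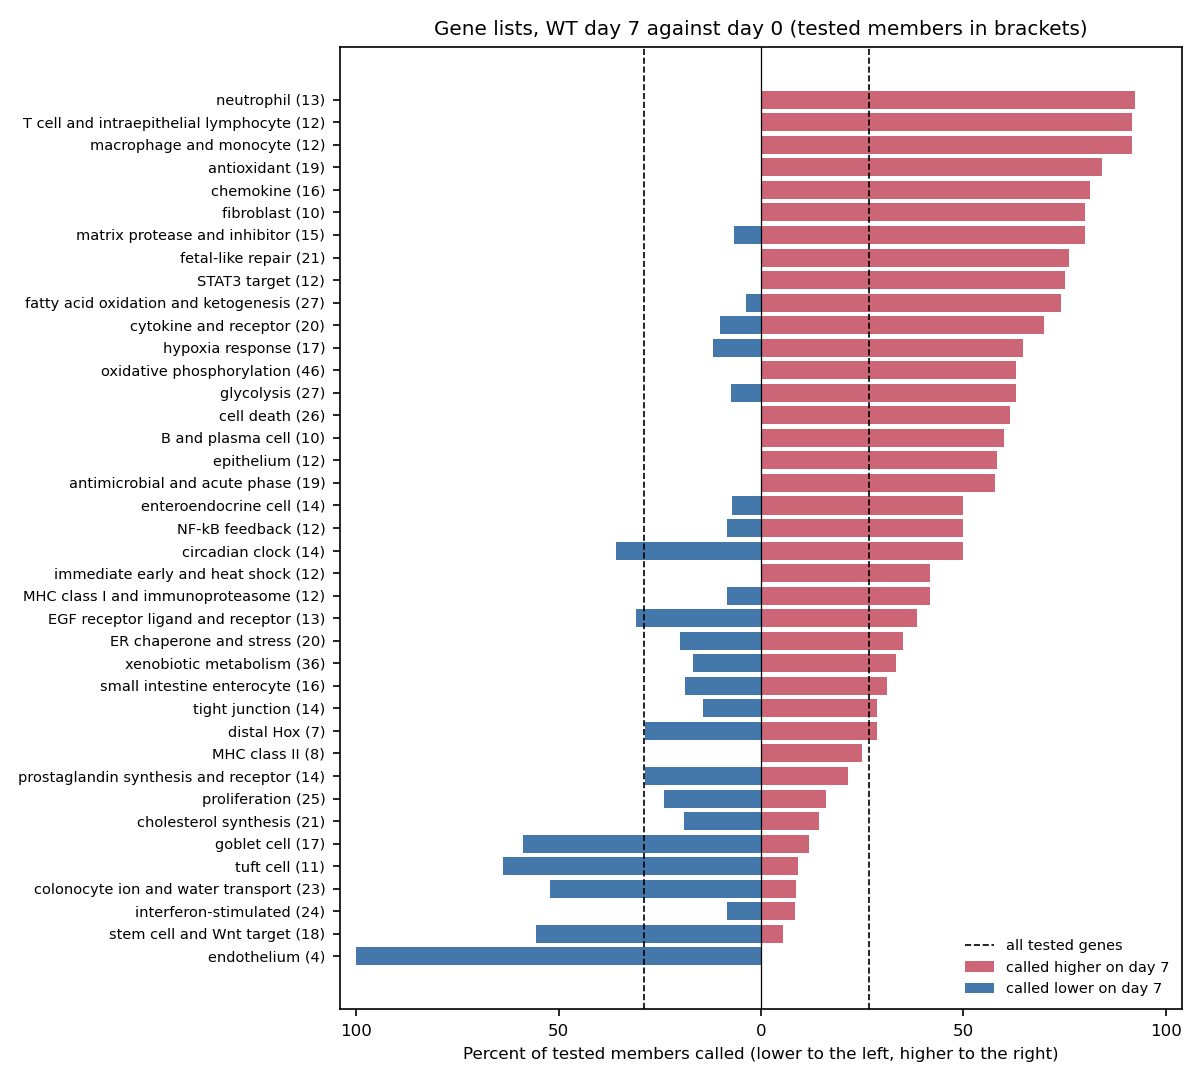
Percent of tested members called higher on day 7 (red, to the right) and lower (blue, to the left) for gene lists, with the number tested in brackets. Dashed lines mark the 26.7% of all tested genes called higher and the 29% called lower. Neutrophil, macrophage and T cell lists reach furthest to the right, and endothelial, tuft and goblet cell and stem cell lists furthest to the left.

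Smaller sets included barrier, clock and early response genes. Of 14 tight junction genes 4 were higher and 2 lower, against 26.7% and 29% of all tested genes. Cldn2, a leaky claudin, had 170, 162, 147 and 142 CPM on day 0 and 171, 233 and 325 CPM on day 7 (change 0.64, SE 0.16, adjusted p 0.0036), and Ocln, occludin, had 149 to 211 CPM and then 107, 112 and 142 CPM (change -0.68, SE 0.12, adjusted p 0.00029). Between day 7 and day 3 none of the 14 was higher and 1 was lower. Cldn2 changed there by -0.10 (SE 0.16, adjusted p 0.72) and Ocln by -0.25 (SE 0.08, adjusted p 0.041). Of 14 clock genes 7 were higher and 5 lower, against 26.7% and 29% of all tested genes. Relative to day 3, 1 clock gene was higher and none was lower. Arntl, the activator, had 88.2 to 114 CPM and then 33.2, 40.5 and 61.4 CPM. Its repressor Nr1d1 had 31.9 to 48.5 CPM and then 65.8, 119 and 160 CPM. Over day 3 Arntl changed by -0.38 (SE 0.17, adjusted p 0.14) and Nr1d1 by -0.67 (SE 0.28, adjusted p 0.11). The labels used here do not give a time of day for either group. Egr1, an immediate early transcription factor that tissue handling can induce, had 177, 228, 228 and 332 CPM on day 0 and 804, 1097 and 1287 CPM on day 7 (change 2.16, SE 0.19, adjusted p 1.4e-06). It changed by -0.39 (SE 0.20, adjusted p 0.18) over day 3.

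Lars2, Ahnak, Plec and Actb were abundant genes lower than on day 0 and not called against day 3. Lars2, a mitochondrial leucyl-tRNA synthetase, had 2088, 2304, 1504 and 4321 CPM on day 0 and 92.6, 105.1 and 138 CPM on day 7 (change -4.57, SE 0.24, adjusted p 4.8e-08). Over day 3 it changed by 0.02 (SE 0.11, adjusted p 0.93), and the mitochondrial ribosomal RNA share given above was also lower on day 7; its part in the change was not tested. Ahnak and Plec, giant scaffold proteins of the cell cortex and of intermediate filaments, had 2232 to 3132 CPM and 1727 to 2117 CPM on day 0 against medians of 582 and 611 CPM on day 7. Their changes of -2.17 (SE 0.17) and -1.80 (SE 0.18) were -1.39 and -1.06 with the length trend removed, and -0.05 (SE 0.15) and 0.06 (SE 0.22) over day 3. Actb, cytoplasmic actin, had 4024 to 4886 CPM and then 2395, 3165 and 3565 CPM (change -0.54, SE 0.15, adjusted p 0.0078), with a change of 0.16 (SE 0.15) over day 3. Eef1a1, the translation elongation factor, was among the 8 largest gains in CPM, from 3160 to 5225 CPM to 5178, 6302 and 7639 CPM.

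Among the 12 protein-coding genes with the largest negative fold changes, 10 had too few counts in the later series to be tested against day 3. Lrrtm2, a synaptic protein, had 7.26, 22.8, 19.2 and 22.7 CPM on day 0 and at most 0.0524 CPM on day 7, and Rtl1, an imprinted gene, 2.7 to 7.06 CPM and at most 0.21 CPM. Slc10a1, a bile acid transporter of liver, had 1.05 to 5.99 CPM and at most 0.154 CPM. Dnah5, an axonemal dynein and 1 of the 2 that could be tested, had 14.4 to 21 CPM and then 0.411, 0.503 and 0.635 CPM, a change of -5.01 (SE 0.18, adjusted p 6e-09) over day 0 and of -1.29 (SE 0.45, adjusted p 0.055) over day 3. Mptx1, described above, was the other.

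**Figure D5:**
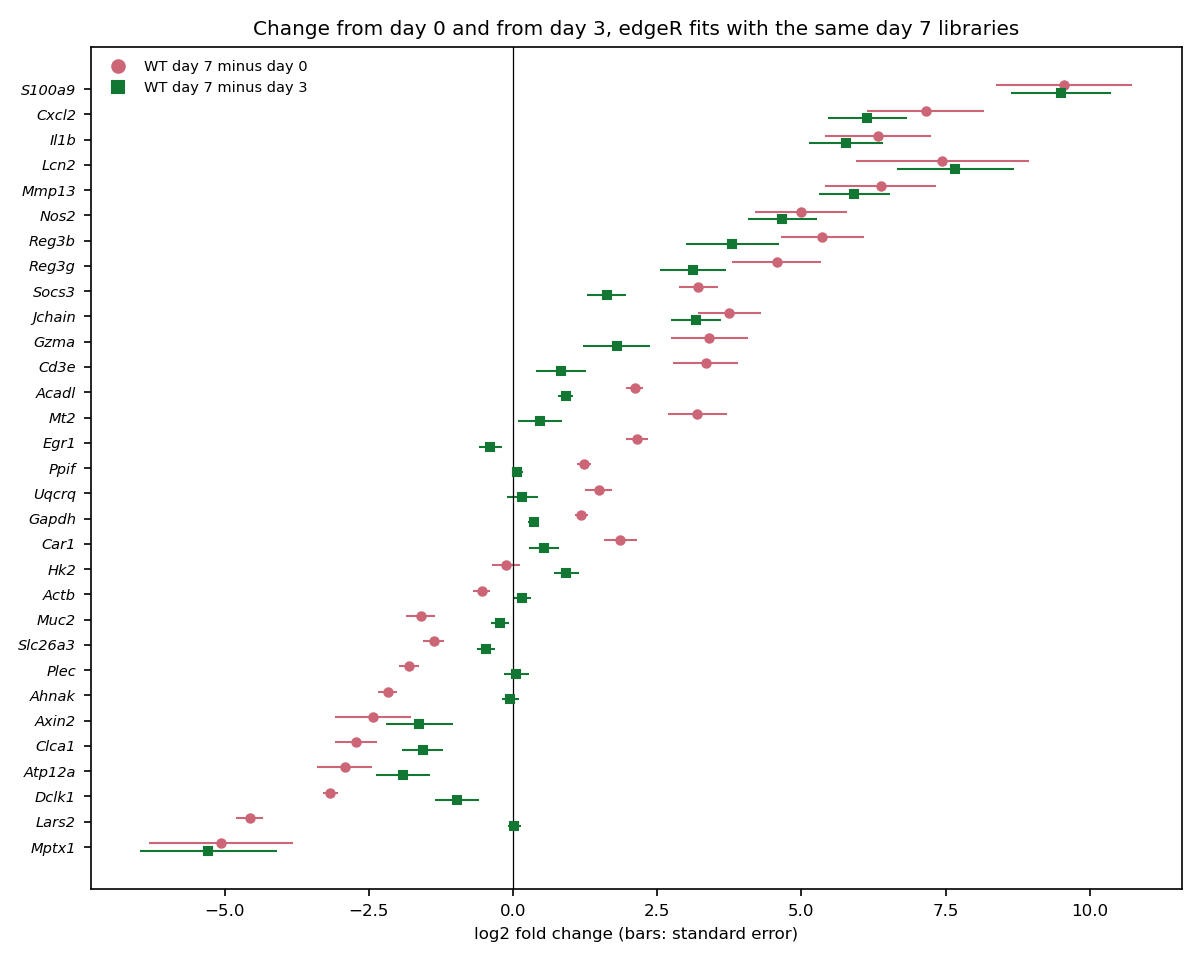
Log2 fold change with its standard error (horizontal axis) of selected genes for WT day 7 minus day 0 (red circles) and WT day 7 minus day 3 (green squares), from 2 fits that share the 7 day 7 libraries. S100a9, Cxcl2, Il1b and Lcn2 lie far to the right in both, and Lars2, Ahnak and Plec lie to the left for day 0 and near 0 for day 3.

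The 7 treated mice varied among themselves. Of the 120 genes followed library by library that were higher on day 7, d7_WT_356 was the highest library for 43 and d7_WT_419 for 36, while d7_WT_370 was the lowest for 34, d7_WT_361 for 26 and d7_WT_386 for 22. Among the 49 such genes that were lower no library was the lowest for more than 11.

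In KO mice the same comparison, with 7 day 7 and 5 day 0 libraries, called 9117 of 16472 genes (55.3%), 4561 higher (27.7%) and 4556 lower (27.7%). The difference of the day 7 change between KO and WT was called for 1 of 18418 genes (0.00543%), and 2478 had an unadjusted p under 0.05. That gene was Per2, a clock repressor, with 28.9, 33.7, 35 and 27.5 CPM on day 0 and 13.4, 20.6 and 30.9 CPM on day 7 in WT mice (change -0.52, SE 0.20, adjusted p 0.037). In KO mice its change was 1.12 (SE 0.13, adjusted p 8.5e-06), a difference of 1.62 (adjusted p 0.00999). The WT change of Per2 lost its call without d0_WT_31, d0_WT_41 or d0_WT_43 or d7_WT_386, d7_WT_393, d7_WT_419 or d7_WT_431, with no filter on low counts, with all libraries in 1 fit and with the length trend removed. The DESeq2 Wald test was not run for the difference.

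Counting ignored strand, so a gene that shares exonic bases with another cannot be told from it. Among the genes named here this touches Fpr2, Elf3, Il1a, Il1b, Tifa, Pim1, Fcgbp, Axin2, Spp1, Ctgf, Ereg, Dclk1, Trpm5, Tas1r3, Alox5ap, Top2a, Gapdh, Cox5a, Atp5j, Ndrg1, Ptger4, Tbxas1, Timp3, Lrig1, Egf, Dpp4, Hoxd11, Nr1d1, Cxcl10, Cd74, Plec, Rtl1, Eef1a1 and Xist. Immunoglobulin, metallothionein, MHC, Saa, Reg3 and Ugt genes have near-identical relatives, and the split of their reads is uncertain. The labels do not say whether each animal number is a separate litter or cage, so p-values measure the spread between these libraries.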

How the data were processed

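Gene counts of mouse intestinal epithelial RNA-seq libraries were used. Per the file headers, the authors made the deposited raw counts per gene with featureCounts 1.6.2 on paired reads with strand ignored, whereas the submitters' processing notes name Trim Galore, STAR, featureCounts 1.5.2 and GRCm38. The annotation release is not given in the sources used here. Per the labels, libraries came from a stranded mRNA kit and were read as pairs of 50 bases. The 2 lane files of each library were summed, and 71 histone, 37 mitochondrial-genome and 6091 small noncoding RNA genes were dropped before library sizes were taken. Gene types are from GENCODE M21, and coordinates are those of the files.

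Day 7 and day 0 WT libraries were compared with the edgeR 4.0.16 quasi-likelihood test in R 4.3.3, with TMM scaling, filterByExpr and Benjamini-Hochberg adjustment over all tested genes. SE is the log2 fold change over the root of F. WT day 7 against day 3, KO day 7 against day 0 and the interaction of genotype and day were fitted alike, and share libraries with the main comparison. On simulated counts for that comparison (16596 unchanged genes), 71 of 100 genes changed 2-fold and 92 of 100 changed 4-fold were called, with 6 false calls. The changed genes had a mean of at least 1 CPM and went up and down in equal number. No library series, gene length or sex difference was simulated. In the data 55.7% of genes were called, so these rates need not carry over. Precision is limited by counts: 3 counts in a library were 0.0759 to 0.268 CPM on day 0 and 0.0632 to 0.168 CPM on day 7, and floors and intervals cover counting error only. Every pair of replicate libraries differed by more than sampling noise.

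Named genes were protein-coding genes called without overlap at a mean of at least 4 CPM in the higher group (the 12 highest and 12 lowest fold changes), the 8 largest differences of mean CPM in each direction, up to 5 called members of each of 41 gene lists, Hk2 and Ppif; not all are given, and some are not reported here. Cxcl1, Cxcl5, Cxcl9, Cxcl10, Reg3g, Epcam, Cd68, Cd74, Ly6g, Lypd8, Saa1, Mlkl, Gsdmd, Casp8, Csf3r, Lrig1, Egr1, Xist, Per2, Insl5, Timp1, Timp3, Myc, Egf, Egfr, Erbb3, Lct, Apob, Dpp4 and others outside the rule were chosen after their values were seen. Members and lists were chosen with earlier results of these data known. Alternatives were other scalings, filters, gene sets, dispersions and sample sets, 1 lane, DESeq2 1.42.0, a 2-fold threshold, each library left out and, added later, removal of a length trend.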

Additional observations from a re-analysis of the deposited data

Results flagged for a closer look

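A library was set apart where its gap to the nearest of its group was large for the range of that group (beyond Dixon's 95% critical value) on log2 CPM plus 0.5. Chance marks about 1 in 20 groups.

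Among day 0 libraries, d0_WT_31 stood apart for Xist (525 CPM, the others 0.715 to 1.68), Lgals4 (5061 CPM, the others up to 3834), Atp5j (146 CPM, the others 106 to 107), Gm10800 (31.7 CPM, the others 1.61 to 2.38), Lrrtm2 (7.26 CPM, the others 19.2 to 22.8) and Tas1r3 (4.57 CPM, the others 7.24 to 7.47). Library d0_WT_41 had the highest Cd74 (264 CPM) and the lowest Cxcl1 (1.39 CPM), and d0_WT_43 the lowest Lypd8 (4200 CPM) and Bnip3 (4.2 CPM). In several genes near 0 a single day 0 library held all counts. These were Mmp8 and Fpr2 in d0_WT_31 (0.0749 CPM each), Fpr1 in d0_WT_43 (0.0894 CPM), Il1f9 in d0_WT_41 (0.0581 CPM), and Mmp10 (0.0506 CPM), Nrg1 (0.0253 CPM), Hoxd11 (0.076 CPM) and Timp1 (0.228 CPM) in d0_WT_46. For Lct, d0_WT_46 was the highest (1.16 CPM, the others 0.447 to 0.465).

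Among day 7 libraries, d7_WT_356 was high for Hk2 (720 CPM, the others 271 to 377) and Ripk3 (147 CPM, the others 80.5 to 103). Library d7_WT_370 was low for Guca2b (14.8 CPM, the others 28.7 to 43.1), Gsta1 (13.5 CPM, the others 39.2 to 69) and Ciart (0.789 CPM, the others 2.98 to 5.31). Library d7_WT_393 was high for Ocln (142 CPM, the others 107 to 113) and Gm10800 (0.14 CPM, the others up to 0.0559).

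Per2 was the gene whose change from day 0 to day 7 differed between the genotypes, by 1.62 on the log2 scale, in edgeR's interaction test.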

How the results depend on the processing

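Over the settings that kept all 11 libraries, 3581 to 5569 genes were called higher and 3485 to 6721 lower (main values 4568 and 4949), and over fits that each left out 1 library 3643 to 4842 and 4238 to 5379. A 2-fold threshold moved the counts most, to 1694 higher and 2948 lower, since it removes genes by construction. The DESeq2 Wald test called 4921 higher and 6551 lower. Of 169 called genes followed by name, 163 to 169 were tested in each setting, and none of those changed direction. They were named from these same libraries, many after their values were seen. No setting could separate treatment from library series. Calls were lost for Ifit2 with a mean CPM of at least 1 and with robust dispersions, for Per2 and Erbb3 with no filter on low counts, for Zg16 and Per2 with all 38 libraries in 1 fit, and for H2-DMa, Per2, Egf, Erbb3 and Apob with the length trend removed; the cause was not tested. Leaving out 1 library cost at most 9 calls, without d0_WT_31. The interaction called 1 gene with and without the filter on low counts. No paired analysis was possible because no animal number occurs on both days. Low counts on day 0 limit the folds of genes near 0.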
